A study of Mus musculus with 12 samples.

Results

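The knockout effect in basal cells was compared with the knockout effect in luminal cells of the mouse mammary gland. For each gene the log2 fold of knockout-labelled over control libraries was taken in basal cells, and the same fold in luminal cells was subtracted from it. A positive difference therefore means a basal effect above the luminal one, and a negative difference a basal effect below it. The members are all genes that passed a filter on low counts, 14903 of the 27179 genes in the count table.

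All 12 libraries came from mammary epithelium of female mice. Controls carried Foxp1(fl/fl), the floxed gene without Cre, and knockouts carried MMTV-cre/Foxp1(fl/fl), so both genotypes share the floxed alleles. Basal and luminal epithelial cells of each genotype gave 4 groups with 3 biological replicates each. The Cre is driven by the promoter of the mouse mammary tumour virus, which acts in mammary and some other secretory epithelia, and the labels give neither ages nor the number of mice per library.

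Foxp1 is a forkhead transcription factor that mostly represses its target genes. The mammary duct has an inner luminal layer, which holds hormone-sensing cells and the cells that make milk, and an outer basal layer of contractile myoepithelial cells with stem cell activity. The layers signal to each other through secreted ligands, among them Slit and netrin proteins, which guide axons in the nervous system and also help to hold the layers of the duct together.

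Total counts were between 9769361 and 15449513 per library. The 22 basal and myoepithelial markers summed to between 24884 and 33737 CPM in basal libraries and to between 682 and 1878 CPM in luminal libraries. The 16 pan-luminal markers summed to between 13385 and 28899 CPM in luminal libraries and to between 2518 and 4871 CPM in basal ones, so the labelled cell types matched their markers. A saliva transcript, Bpifa2, took 0.636% to 6.70% of counts in luminal libraries and 0.0113% to 0.342% in basal ones. Some other saliva transcripts differed by genotype label. Smr3a had 415360 counts over luminal controls and 632 over luminal knockout-labelled libraries, and 14056 and 219 over the basal groups. Prh1 had 4 counts over luminal controls and 3154 over luminal knockout-labelled libraries. Within luminal cells 4 of 15 tested saliva transcripts were called higher and 1 lower (2.21% and 0.819% of all tested genes). The cause was not tested. Scaling to library sizes without saliva transcripts again called 41 genes. Defining markers of fat cells (Adipoq), red blood cells (Hba-a1, Hbb-bs) and T cells (Cd3e) had at most 11 counts over any group.

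The targeted gene did not check the labels. Basal control libraries, here and throughout in the order of replicates 1, 2 and 3, held 221, 213 and 160 CPM of Foxp1, and basal knockout-labelled libraries 212, 193 and 284 CPM. Luminal controls had 82.3, 62.0 and 78.2 CPM, and the luminal knockout-labelled libraries 161, 150 and 155 CPM. The basal groups overlapped, while each luminal knockout-labelled library was above each luminal control, and that luminal rise was called (log2 fold 1.07, adjusted p = 0.0161). The difference of effects was -0.85 (SE 0.27, adjusted p = 0.262). Gene-level counts include reads outside the floxed exons, so loss of the floxed part was not tested, and the groups are called knockout-labelled throughout.

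Few genes were called for a difference between the 2 effects, and the fitted folds of most of these had opposite signs. At an adjusted p under 0.05, 41 genes were called, which is 0.275% of those tested. Of these, 27 had a positive difference (0.181%) and 14 a negative one (0.0939%), and 1467 genes had an unadjusted p under 0.05. The count depended on the tool and model, with 22 genes called by limma-voom, 356 by DESeq2 and 106 with the replicate number as a block. The basal and luminal folds had opposite signs in 35 of the 41 called genes and the same sign in 6. Over all tested genes 6211, or 41.7%, had opposite signs. Selection for a large difference itself favours opposite signs, so this share is no measure of chance for the called genes. Both folds were called in only 3 of the 41, so most of the opposite signs rest on at least 1 uncalled fold.

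Each called gene was then read for the cell type that carried it. The knockout comparison within luminal cells called 451 genes (3.03%), and that within basal cells called 100 genes (0.671%). With the replicate number as a block these counts were 1097 and 236. Of the 41 genes, 25 were called in luminal cells alone, 10 in basal cells alone and 3 in both (Angpt1, Ntn1 and Lpar1). The other 3, Plxnd1, Ecm2 and Pcolce2, were called in neither, and their folds pointed opposite ways. Among the 27 genes with a positive difference, 15 were called lower in luminal cells (0.819% of all tested genes) and 12 higher in basal cells (0.611%). Among the 14 with a negative difference, 13 were called higher in luminal cells (2.21%) and 1, Slit2, lower in basal cells (0.0604%).

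A call in 1 cell type alone was rarely a called difference between the cell types. Of 428 genes called in luminal cells and not in basal cells, 403 were not called in the difference itself, and the same held for 67 of 77 genes called in basal cells alone. Both cell types called 23 genes, of which 20 had the same sign. The 2 knockout comparisons contrast different libraries, but both came from 1 fit of all 12, so they share its estimates of spread. Each also shares its libraries with the difference. The groups of knockout-labelled and control libraries did not overlap in luminal cells for 33 of the 41 genes (25.4% of all tested genes) and in basal cells for 30 (12.4% of all tested genes).

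**Figure D1:**
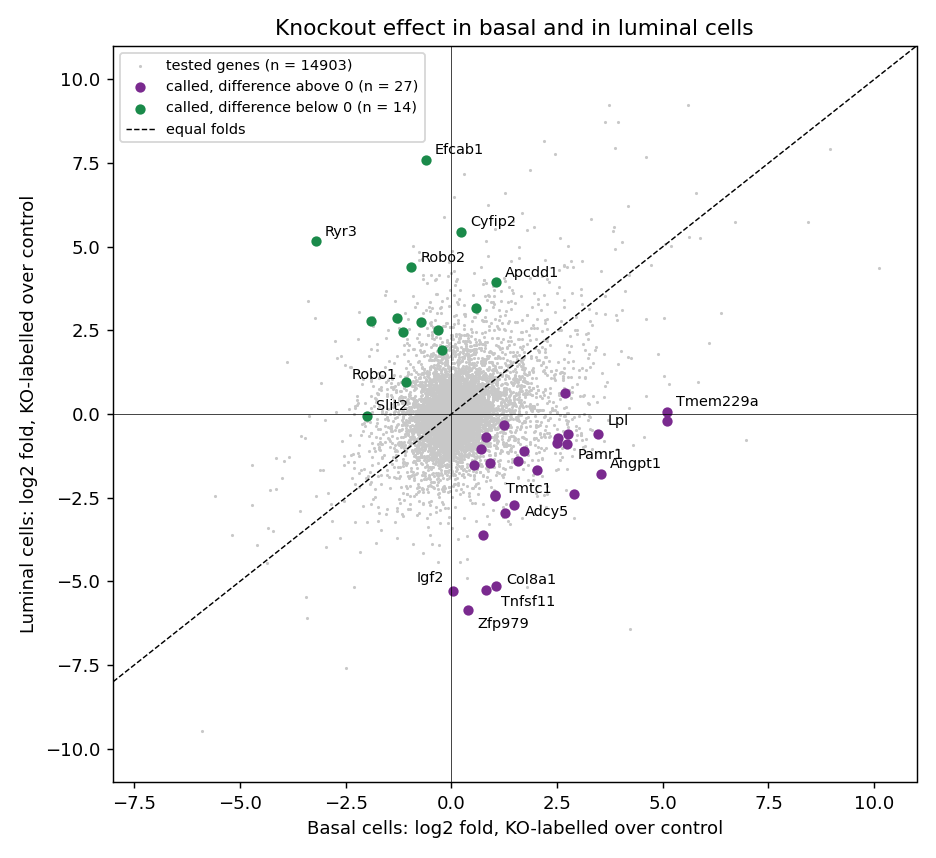
Each point is a gene, with its log2 fold of knockout-labelled over control in basal cells on the x axis and in luminal cells on the y axis. The dashed line marks equal folds; the 27 genes with a positive difference (purple) lie below it and the 14 with a negative difference (green) above it, and fitted folds of genes with 3 or fewer counts in a group, such as Efcab1, depend on the prior count.

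For 10 genes the call held in all 12 fits that each left out 1 library and in all 10 other settings: Col8a1, Angpt1, Robo2, Cyfip2, Adcy5, Ntn1, Apcdd1, Tmtc1, Ryr3 and Pamr1. The other 31 lost their call in at least 1 of the fits without a library. Called genes are described below by role.

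Among matrix and secreted proteins the lead was Col8a1, a short-chain collagen (Entrez 12837, GRCm38 chromosome 16, 57624256 to 57754737). In luminal cells it had 143, 80.1 and 86.2 CPM in controls and 2.39, 3.67 and 2.67 CPM in the knockout-labelled libraries. In basal cells it had 2.90, 2.68 and 2.31 CPM in controls and 4.66, 6.18 and 5.54 CPM in the knockout-labelled libraries. Neither pair of groups overlapped, and the luminal level in the knockout-labelled libraries lay close to the basal control level. The luminal log2 fold was -5.14, the basal log2 fold was 1.05 (adjusted p = 0.124), and the difference was 6.19 (SE 0.39, adjusted p = 4.94e-05).

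The promoter window of Col8a1 is shown because this gene had the lowest p of the contrast, and those of Ch25h and Mak because they hold the TATAAA box in called genes of either direction. Each is the 250 bases before the annotated start, from RefSeq on GRCm38.p6, on the gene's own strand (minus for each of these), with TATAAA or its reverse complement TTTATA in capitals. The windows are chr16:57754738-57754987 for Col8a1, chr19:34475149-34475398 for Ch25h and chr13:41079707-41079956 for Mak.
Col8a1: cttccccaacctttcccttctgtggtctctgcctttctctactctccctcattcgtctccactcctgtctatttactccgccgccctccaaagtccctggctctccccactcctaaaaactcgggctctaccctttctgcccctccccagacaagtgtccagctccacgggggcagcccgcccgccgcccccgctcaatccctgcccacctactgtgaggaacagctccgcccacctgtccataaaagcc
Ch25h: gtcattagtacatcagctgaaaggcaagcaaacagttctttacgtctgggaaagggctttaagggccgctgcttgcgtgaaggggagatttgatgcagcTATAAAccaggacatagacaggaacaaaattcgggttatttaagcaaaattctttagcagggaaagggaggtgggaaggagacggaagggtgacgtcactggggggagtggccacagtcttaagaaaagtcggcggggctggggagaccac
Mak: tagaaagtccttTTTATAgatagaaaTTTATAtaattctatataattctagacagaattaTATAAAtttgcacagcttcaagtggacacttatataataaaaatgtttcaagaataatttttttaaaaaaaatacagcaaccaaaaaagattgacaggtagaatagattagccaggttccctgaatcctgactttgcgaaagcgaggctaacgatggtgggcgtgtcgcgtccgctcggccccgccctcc

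3 forkhead-type letter strings and the TATA box were searched on both strands of the first listed window of each gene. A window was listed for 28 of the 41 called genes and for 11360 tested genes. TGTTTAC was in 1 of the 28 windows (3.57%) against 2.12% of tested genes, TATTTAT in 1 (3.57%) against 2.67%, and TATTTGT in 0 against 1.56%. TATAAA was in 6 of 28 (21.4%) against 6.92% of tested genes. In Ch25h it began 151 bases before the start, and in Mak 1 same-strand match began 190 bases before it. A match is a description of the letters and no site, and these counts were not tested.

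Further called genes with positive differences included some for secreted and matrix proteins, described here with Scara5, a receptor. Of the 7 described here, all taken from the called genes, 4 were called higher in basal cells (0.611% of all tested genes). Pamr1, a secreted protein with a peptidase-like domain, stood at 16.5, 10.8 and 10.7 CPM in basal controls against 74.9, 109 and 67.5 CPM in the basal knockout-labelled libraries. Its luminal levels were 4.49, 8.32 and 4.52 CPM in controls and 2.09, 3.31 and 3.80 CPM in the knockout-labelled libraries. The groups were apart in each cell type, and the difference was 3.63 (SE 0.46, adjusted p = 0.00864).

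Lpl, the lipase that releases fatty acids from circulating triglycerides, had 3.53, 2.5 and 5.27 CPM in basal controls and 45.4, 62.7 and 17.7 CPM in the basal knockout-labelled libraries. Its luminal values overlapped, with 4.49, 13.6 and 7.94 CPM in controls and 6.68, 5.37 and 5.21 CPM in the knockout-labelled libraries. The difference of 4.07 (SE 0.70, adjusted p = 0.046) was called in 4 of 12 fits without a library, and its adjusted p was 0.123 without basal knockout replicate 1. Scara5, a receptor for ferritin, rose in basal cells (log2 fold 2.52) with a luminal log2 fold of -0.71, and the difference was 3.23 (adjusted p = 0.0322).

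Serpine2, an inhibitor of serine proteases, went the other way round: it fell in luminal cells, from 47.0, 20.4 and 34.0 CPM to 12.3, 13.9 and 10.9 CPM. Basal levels were 33.8, 29.6 and 32.6 CPM in controls and 54.0, 64.4 and 63.0 CPM in the knockout-labelled libraries, a log2 fold of 0.92 that was not called (adjusted p = 0.147). Its difference was 2.37 (SE 0.36, adjusted p = 0.026). Pcolce2, which enhances the trimming of procollagens, had a difference of 5.28 (adjusted p = 0.0474), with 0.415, 1.07 and 4.06 CPM in basal controls and 11.3, 18.6 and 11.6 CPM in the basal knockout-labelled libraries.

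Ecm2 and Clu were called but fall outside the rule for named genes and were chosen after their values were seen. Ecm2, a matrix protein, had a difference of 2.98 (adjusted p = 0.0456). Clu, a secreted chaperone, rose in basal cells (log2 fold 1.24), and its difference was 1.56 (adjusted p = 0.0474).

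Fibroblast markers had differences in the same direction as these genes. Of all 14903 tested genes, 7764 had a positive difference and 1467 an unadjusted p under 0.05. None of the 16 fibroblast markers was called, but 15 of 16 had a positive difference and 12 had an unadjusted p under 0.05. Their median was 2.52 against 0.02 over all tested genes. Their summed level was 776 to 815 CPM in basal controls, 2144 to 3455 CPM in basal knockout-labelled libraries, 83.5 to 460 CPM in luminal controls and 136 to 408 CPM in luminal knockout-labelled libraries. The collagen chain Col1a1 had 2334 counts over basal controls and 8980 over basal knockout-labelled libraries. Pdgfra, a fibroblast receptor, had a difference of 2.29 (adjusted p = 0.092). The part of fibroblast RNA in the secreted genes was not tested. In bulk libraries, more cells of a type and more RNA per cell cannot be told apart.

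**Figure D2:**
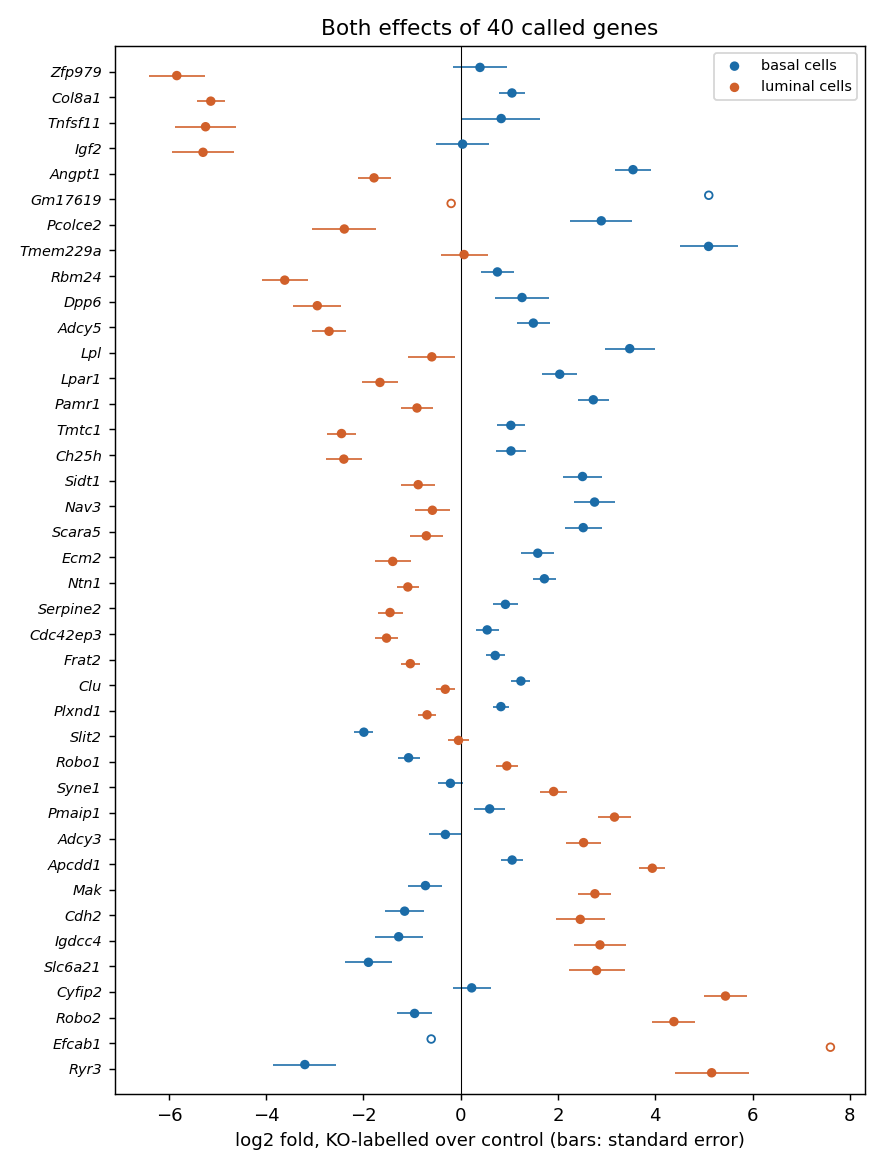
Log2 folds of knockout-labelled over control for 40 of the 41 called genes, ordered by their difference, in basal cells (blue) and luminal cells (orange), with standard errors as bars. Open circles without bars mark genes with 3 or fewer counts in a group, whose fitted folds depend on the prior count; in 35 of the 40 genes the points lie on opposite sides of 0.

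Axon guidance ligands and receptors held 5 called genes of 31 tested, 2 positive (Ntn1 and Plxnd1) and 3 negative (Slit2, Robo1 and Robo2), beside 0.275% called of all tested genes. The median over the 31 was 0.16, against 0.02 over all tested genes. Slit2 is a secreted ligand, and Robo1 and Robo2 are its receptors.

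Slit2 was lower in the basal knockout-labelled libraries, at 9.32, 12.5 and 12.2 CPM against 41.2, 43.1 and 51.3 CPM in controls. In luminal cells it had 2.06, 1.85 and 2.01 CPM in controls and 2.19, 1.97 and 1.60 CPM in the knockout-labelled libraries. The basal groups were apart and the luminal groups overlapped. The difference was -1.95 (SE 0.29, adjusted p = 0.026), and the call held in 4 of 12 fits without a library.

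For Robo2, luminal cells went from 1.5, 0.74 and 1.11 CPM in controls to 19.4, 28.5 and 22.4 CPM in the knockout-labelled libraries. Basal cells had 43.0, 43.0 and 15.3 CPM in controls and 17.5, 20.8 and 14.1 CPM in the knockout-labelled libraries. The luminal groups were apart, and basal control replicate 3 lay within the basal knockout-labelled range. The luminal log2 fold was 4.38, the basal one -0.95 (adjusted p = 0.392), and the difference -5.33 (SE 0.57, adjusted p = 0.00484). In the knockout-labelled libraries the basal and luminal levels of Robo2 lay within 14.1 to 28.5 CPM.

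Robo1 showed the same directions on a smaller scale. Its basal levels were 99.9, 89.4 and 62.9 CPM in controls and 34.6, 42.6 and 42.6 CPM in the knockout-labelled libraries, and its luminal levels were 28.3, 21.4 and 16.8 CPM in controls and 39.8, 49.3 and 39.0 CPM in the knockout-labelled libraries. No knockout-labelled library overlapped its controls. The luminal rise was called (log2 fold 0.95, adjusted p = 0.0494), the basal log2 fold of -1.07 was not (adjusted p = 0.0648), and the difference was -2.02 (SE 0.32, adjusted p = 0.0322).

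Ntn1, netrin-1, another secreted guidance ligand, changed in both cell types in opposite directions. It rose in basal cells from 8.40, 11.5 and 11.6 CPM to 38.1, 37.7 and 28.4 CPM. It fell in luminal cells from 176, 217 and 137 CPM to 96.5, 89.9 and 62.7 CPM. Luminal cells kept the higher level in both genotypes, and the gap narrowed, with a difference of 2.81 (SE 0.33, adjusted p = 0.00522).

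Plxnd1, a semaphorin receptor, reached a called difference with neither effect called. Basal levels were 39.2, 35.5 and 33.2 CPM in controls and 58.2, 62.6 and 70.4 CPM in the knockout-labelled libraries. Luminal levels were 8.05, 10.8 and 12.2 CPM in controls and 6.18, 6.44 and 6.54 CPM in the knockout-labelled libraries. The groups were apart in both cell types, and the difference of 1.52 (SE 0.25, adjusted p = 0.0371) was the smallest by size among the called genes. Plxnd1 is named because it was 1 of only 5 called guidance genes, chosen after its values were seen. Of the uncalled members, the ephrin receptor Ephb4 had a difference of 1.08 (adjusted p = 0.104) and the netrin receptor Unc5c one of 4.43 (adjusted p = 0.104).

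**Figure D3:**
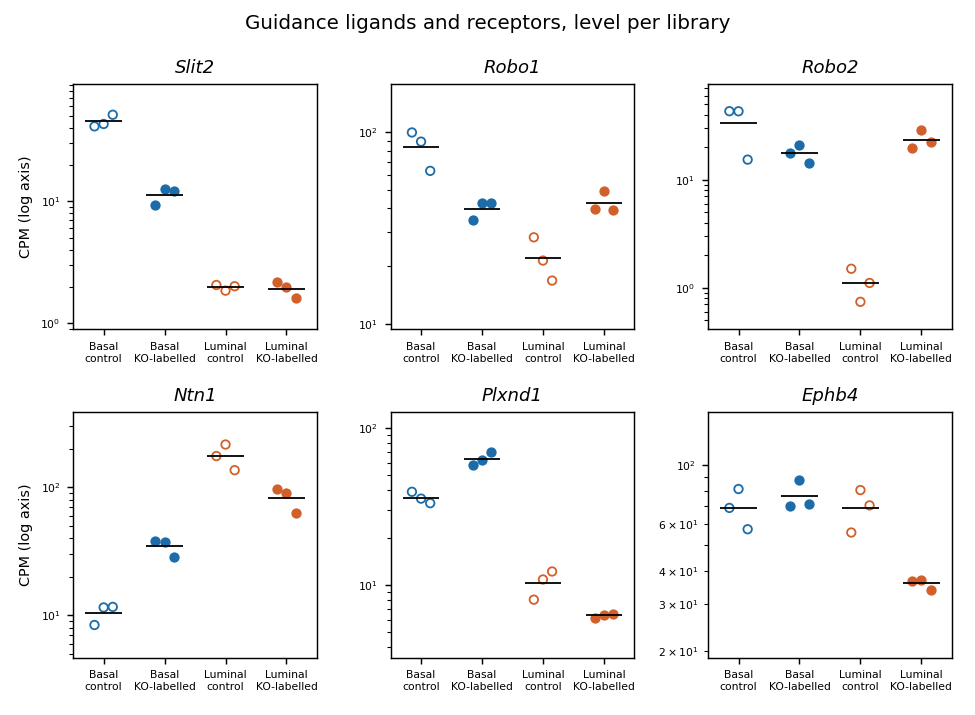
CPM on a log axis for 6 guidance genes in each of the 12 libraries, with open circles for controls, filled circles for knockout-labelled libraries and bars for group means. Robo2 in luminal cells moves from 0.74 to 1.5 CPM up to 19.4 to 28.5 CPM, and Ntn1 moves up in basal and down in luminal cells.

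Of 27 growth factor genes, 2 were called, both with positive differences (0.181% of all tested genes), and the median was 0.36 against 0.02 over all tested genes. Angpt1, the secreted ligand of the receptor Tek, rose in basal cells from 2.39, 2.86 and 1.94 CPM to 20.9, 33.6 and 29.7 CPM. In luminal cells it fell from 10.4, 18.7 and 8.55 CPM to 4.79, 3.31 and 2.87 CPM. Control cells held more Angpt1 on the luminal side and knockout-labelled cells more on the basal side, with no overlap in either. The difference was 5.33 (SE 0.50, adjusted p = 0.00184).

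Igf2, an imprinted growth factor, was read in luminal controls at 108, 59.8 and 17.5 CPM and in the luminal knockout-labelled libraries at 0.598, 1.70 and 2.27 CPM. Basal levels were 4.77, 6.79 and 6.93 CPM in controls and 5.77, 6.18 and 7.06 CPM in the knockout-labelled libraries. The fall was seen in luminal cells (log2 fold -5.30), where the controls themselves spread widely, and the basal log2 fold was 0.04 (adjusted p = 0.998). The difference was 5.34 (SE 0.82, adjusted p = 0.0288), and the call held in 4 of 12 fits without a library. H19, the imprinted RNA beside Igf2, had a difference of 4.69 (SE 1.61, adjusted p = 0.307).

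Tnfsf11, or RANKL, the ligand that hormone-sensing cells send to neighbouring cells, had 29.3, 36.9 and 13.6 CPM in luminal controls and 1.10, 0.626 and 0.400 CPM in the luminal knockout-labelled libraries. Basal libraries held at most 0.627 CPM, with 8 counts over controls and 14 over the knockout-labelled group. A basal fall like the luminal one could hardly have been seen at that level. The difference was 6.08 (SE 1.01, adjusted p = 0.0392), and its adjusted p was 0.147 without basal knockout replicate 2. It was the only called gene among 20 hormone-sensing markers (0.275% called of all tested genes), whose median was 0.17. The hormone receptors Esr1 and Pgr were not called.

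Signalling through cyclic AMP, calcium and lysophosphatidic acid held genes of both directions. Adcy5 and Adcy3 are adenylyl cyclases, which make cyclic AMP, and their differences had opposite signs. Adcy5 had 11.6, 13.2 and 8.85 CPM in luminal controls and 1.60, 1.79 and 1.74 CPM in the luminal knockout-labelled libraries. In basal cells it had 2.70, 2.14 and 2.40 CPM in controls and 4.26, 10.5 and 5.65 CPM in the knockout-labelled libraries. The luminal fall was called and the basal log2 fold of 1.49 was not (adjusted p = 0.0891), and the difference was 4.20 (SE 0.49, adjusted p = 0.00522).

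Adcy3 had 4.02, 4.53 and 3.02 CPM in luminal controls and 31.0, 23.8 and 12.2 CPM in the luminal knockout-labelled libraries. Its basal groups overlapped, at 25.1, 26.9 and 17.7 CPM in controls and 15, 24.5 and 16.4 CPM in the knockout-labelled libraries. The difference was -2.84 (SE 0.48, adjusted p = 0.0456). The call held in 3 of 12 fits without a library.

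Ryr3, a channel that releases calcium from internal stores, had 0.187, 0.647 and 0.201 CPM in luminal controls and 7.88, 9.40 and 21.2 CPM in the luminal knockout-labelled libraries. In basal cells it had 19.1, 15.5 and 7.48 CPM in controls and 0.507, 2.87 and 1.09 CPM in the knockout-labelled libraries. The groups were apart in both cell types, so the layer with the higher level was basal in controls and luminal in the knockout-labelled libraries. The luminal log2 fold was 5.16 (adjusted p = 0.00744), the basal one -3.21 (adjusted p = 0.0536) and the difference -8.37 (SE 1.0, adjusted p = 0.00522).

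Lpar1, a receptor for lysophosphatidic acid, was called in both cell types. It rose in basal cells from 2.18, 2.5 and 2.68 CPM to 7.40, 14.5 and 8.36 CPM. It fell in luminal cells from 2.90, 4.99 and 2.51 CPM to 1.10, 1.25 and 0.934 CPM. The difference was 3.70 (SE 0.52, adjusted p = 0.0153), and 8 of 12 fits without a library called it.

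**Figure D4:**
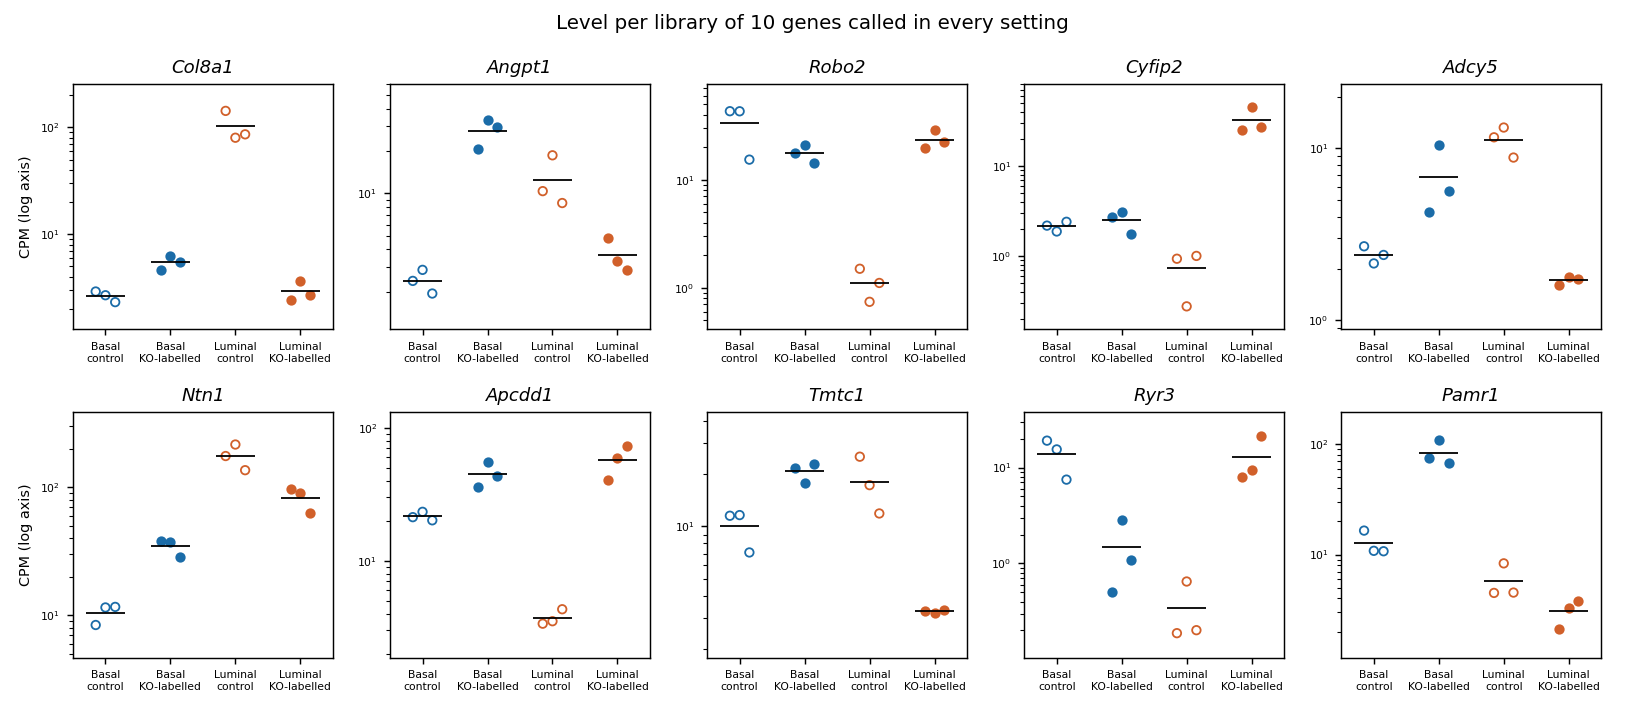
CPM on a log axis in each of the 12 libraries for the 10 genes called in all 22 other fits, with open circles for controls, filled circles for knockout-labelled libraries and bars for group means. Col8a1 in luminal cells falls from 80.1 to 143 CPM down to 2.39 to 3.67 CPM, and the Ryr3 points of the knockout-labelled libraries lie below the controls in basal and above them in luminal cells.

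Genes of the cytoskeleton and of cell adhesion moved in both directions. Of the 5 described here, all taken from the called genes, 3 were called higher in luminal cells (2.21% of all tested genes). Cyfip2, a member of the WAVE complex that starts actin branching, had 0.936, 0.277 and 1.01 CPM in luminal controls and 24.9, 45.4 and 27.2 CPM in the luminal knockout-labelled libraries. Basal levels lay between 1.74 and 3.05 CPM in all 6 libraries, with overlapping groups. The difference was -5.22 (SE 0.58, adjusted p = 0.00522).

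Cdh2, or N-cadherin, an adhesion protein, had 0.187, 0.555 and 0.302 CPM in luminal controls and 1.30, 2.60 and 2.0 CPM in the luminal knockout-labelled libraries. In basal cells it had 14, 11.7 and 8.96 CPM in controls and 2.84, 6.09 and 6.63 CPM in the knockout-labelled libraries. The groups were apart in both, the basal log2 fold of -1.15 was not called (adjusted p = 0.297), and the difference was -3.61 (SE 0.64, adjusted p = 0.0474). Cdc42ep3, an effector of the GTPase Cdc42, fell in luminal cells from 156, 131 and 132 CPM to 52.1, 40.7 and 52.4 CPM, and its difference was 2.07 (adjusted p = 0.0371).

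Syne1 and Nav3 were also called and were chosen after their values were seen. Syne1, or nesprin-1, which ties the nucleus to the cytoskeleton, rose in luminal cells (log2 fold 1.91), and its difference was -2.12 (adjusted p = 0.0474). Nav3, a microtubule-binding protein, rose in basal cells (log2 fold 2.75), and its difference was 3.34 (adjusted p = 0.039).

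None of 27 tested genes of the Wnt list was called, and their median was 0.12. Outside that list were Apcdd1, a membrane protein that inhibits Wnt signalling, and Frat2, which binds the kinase GSK3. Apcdd1 rose in luminal cells from 3.37, 3.51 and 4.32 CPM to 40.3, 58.9 and 73.0 CPM. Its basal levels were 21.3, 23.3 and 20.1 CPM in controls and 35.8, 55.5 and 43.3 CPM in the knockout-labelled libraries, so the direction was the same in both layers. The basal log2 fold was 1.06 (adjusted p = 0.0776), the luminal one 3.94, and the difference -2.88 (SE 0.34, adjusted p = 0.00522). Frat2 fell in luminal cells from 50.7, 49.0 and 54.4 CPM to 27.3, 21.2 and 26.6 CPM, and its difference was 1.75 (adjusted p = 0.0322).

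Some of the remaining called genes were barely detected in luminal cells of 1 genotype. Zfp979, a zinc finger protein, went in luminal cells from 8.14, 5.55 and 7.14 CPM to 0.0997, 0.0895 and 0.133 CPM. Its basal libraries stayed between 0.0893 and 0.709 CPM, and the difference was 6.24 (SE 0.82, adjusted p = 0.0108). With 11 counts over basal controls and 14 over basal knockout-labelled libraries, a fall like the luminal one could hardly have been seen there. Rbm24, an RNA-binding splicing regulator, went in luminal cells from 5.24, 3.79 and 2.51 CPM to 0.299, 0.268 and 0.334 CPM. Basal levels of Rbm24 were apart too, at 19.1, 19.6 and 8.04 CPM in controls and 20.2, 29.6 and 29.0 CPM in the knockout-labelled libraries. The basal log2 fold of 0.75 was not called (adjusted p = 0.565), and the difference for Rbm24 was 4.37 (SE 0.59, adjusted p = 0.0128).

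Ch25h, the enzyme that makes 25-hydroxycholesterol, fell in luminal cells from 2.15, 3.42 and 1.91 CPM to 0.499, 0.268 and 0.601 CPM. Its basal libraries held 7.36, 6.70 and 4.99 CPM in controls and 13.4, 12.3 and 13.4 CPM in the knockout-labelled group, with no overlap. The basal log2 fold of 1.03 was not called (adjusted p = 0.185), and the difference was 3.44 (SE 0.47, adjusted p = 0.015). Tmtc1, an enzyme of the endoplasmic reticulum that adds mannose to proteins, fell in luminal cells from 25.0, 17.2 and 11.9 CPM to 3.29, 3.22 and 3.34 CPM. Its basal log2 fold was 1.03 (adjusted p = 0.152), and the difference was 3.48 (SE 0.41, adjusted p = 0.00522).

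Mak, a kinase that regulates the length of cilia, rose in luminal cells from 2.34, 2.03 and 3.02 CPM to 10.8, 17.5 and 21.9 CPM. Basal levels were 2.70, 2.59 and 2.22 CPM in controls and 1.01, 1.97 and 1.52 CPM in the knockout-labelled libraries. The groups were apart in both, and the difference was -3.49 (SE 0.49, adjusted p = 0.0152). Efcab1, an EF-hand calcium-binding protein of motile cilia, had 0 counts over the luminal controls and 85 over the luminal knockout-labelled libraries, 24.6-fold higher with the controls set to 3 counts over the group and at least 19.6-fold higher by the exact 95% lower limit. Over the basal groups Efcab1 had 229 counts in controls and 145 in the knockout-labelled libraries, and its adjusted p was 0.0474.

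Pmaip1, or Noxa, which promotes cell death, rose in luminal cells from 10.2, 9.71 and 13.8 CPM to 81.7, 89.4 and 130 CPM. Its basal groups overlapped, and the difference was -2.57 (SE 0.45, adjusted p = 0.0474). Igdcc4, a membrane protein of the immunoglobulin superfamily, rose in luminal cells from 6.36, 7.03 and 5.83 CPM to 49.3, 69.7 and 21.3 CPM, with a difference of -4.14 (adjusted p = 0.0474). The opposite direction was seen for Sidt1, a transmembrane protein, which rose in basal cells (log2 fold 2.5) with a luminal log2 fold of -0.88, and whose difference was 3.38 (adjusted p = 0.0303). Tmem229a, another transmembrane protein, rose in basal cells from 0.519, 0.536 and 0.185 CPM to 8.71, 21.9 and 12.7 CPM, with a luminal log2 fold of 0.07, and its difference was 5.03 (adjusted p = 0.026).

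A further 3 called genes, chosen after their values were seen, were Slc6a21, Dpp6 and Gm17619. Slc6a21, a solute carrier, had a difference of -4.69 (adjusted p = 0.0322). Dpp6, a partner of potassium channels, had a difference of 4.21 (adjusted p = 0.0474) that was lost in all 12 fits without a library. Its basal groups held only 8 counts in controls and 19 in the knockout-labelled libraries. Gm17619, a predicted gene, had 1 count over basal controls and 44 over basal knockout-labelled libraries, a ratio of 46.1 (exact 95% interval 7.85 to 1860, counting error only), and its adjusted p was 0.046.

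The same libraries were read for the gap between the layers in each genotype, as a description that uses the same values as the difference. Luminal against basal cells called 4942 genes in controls (33.2%, of which 16.3% higher and 16.8% lower in luminal cells) and 6044 in the knockout-labelled libraries (40.6%, with 19.2% higher and 21.4% lower). Among the 27 genes with a positive difference, 16 were called higher in luminal cells in controls and 3 in the knockout-labelled libraries, while 4 and 18 were called higher in basal cells. Among the 14 with a negative difference, 13 were called higher in basal cells in controls and 2 in the knockout-labelled libraries. In the knockout-labelled libraries 5 of these 14 were called higher in luminal cells. The gap was narrower in the knockout-labelled libraries for 12 of the 14 genes and wider for 2, and among the 27 it was narrower for 14 and wider for 13.

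The identity markers of either layer gave few calls in the contrast. Of 22 basal, 18 luminal progenitor and 16 pan-luminal markers none was called, with medians of -0.22, 0.86 and 0.21. The basal keratins Krt5 and Krt14, the luminal keratins Krt8, Krt18 and Krt19, and the regulators Elf5, Kit and Trp63 were not called. Within luminal cells 2 of the 22 basal markers were called, both higher, beside 2.21% of all tested genes called higher there. Trp63, the regulator of the basal lineage, went there from 4.96, 2.03 and 15.7 CPM to 27.5, 71.8 and 58.5 CPM, with a luminal log2 fold of 2.80 (adjusted p = 0.0253) and a difference of -2.66 (adjusted p = 0.204). The other was Dkk3, a secreted modulator of Wnt signalling, with a luminal log2 fold of 2.80 (adjusted p = 0.00321). Both rises have the direction of the 13 genes with a negative difference that were called higher in luminal cells. The summed level of the basal markers overlapped between luminal groups, at 682 to 1700 CPM in controls and 1061 to 1878 CPM in the knockout-labelled libraries, and their part in the negative differences was not tested. Krt5 spread widely among basal controls, at 2387, 2574 and 7270 CPM. Egfr, a growth factor receptor, stood just above the threshold, at 1.29 (SE 0.24, adjusted p = 0.0516), and Sox10, a regulator of progenitors, at 1.78 (SE 0.36, adjusted p = 0.0676).

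Tspan8, a tetraspanin of a mammary stem cell population, had 27.3, 36.6 and 9.98 CPM in basal controls and 135, 170 and 166 CPM in the basal knockout-labelled libraries. In luminal cells it had 58.5, 52.2 and 39.7 CPM in controls and 59.6, 59.7 and 52.6 CPM in the knockout-labelled libraries. The basal groups were apart by a wide margin, and the basal rise was called (log2 fold 2.67, adjusted p = 0.00933). The luminal log2 fold of 0.19 was not called (adjusted p = 0.84), and neither was the difference of 2.48 (adjusted p = 0.0676).

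Il1rl1, the receptor for interleukin-33, had 2.43, 1.66 and 8.35 CPM in luminal controls and 122, 763 and 1040 CPM in the luminal knockout-labelled libraries. In basal cells it had 6.85, 2.05 and 4.25 CPM in controls and 4.26, 13.5 and 29.7 CPM in the knockout-labelled libraries. The luminal rise was called (log2 fold 7.28, adjusted p = 0.00744), and the basal log2 fold of 1.85 was not (adjusted p = 0.596). The difference was -5.42 (adjusted p = 0.104), with a wide spread among the knockout-labelled libraries of each layer. The pigment gene a (agouti) had similar folds in both layers (8.95 basal, 7.92 luminal, log2) and a difference of 1.03 (adjusted p = 0.84).

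Milk genes had a median of 1.60 over 14 tested members, and none was called. Csn1s1, a casein, had 52.7, 85.4 and 42.6 CPM in luminal controls and 0.598, 0.805 and 1.13 CPM in the luminal knockout-labelled libraries. Over the basal groups it had 59 counts in controls and 5 in the knockout-labelled libraries. It was called lower in luminal cells (log2 fold -6.10, adjusted p = 5.91e-05) and in basal cells (-3.41, adjusted p = 0.0255). The difference of 2.69 was not called (adjusted p = 0.285). Over the luminal groups Csn2, another casein, had 376 counts in controls and 9 in the knockout-labelled libraries, and over the basal groups 15 and 1, where controls were 14.3-fold higher (exact 95% interval 2.20 to 603).

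Other lists were read by their counts. Collagen and matrix genes had 1 call (Col8a1) of 31, lipid genes 1 (Lpl) of 23 and imprinted genes 1 (Igf2) of 17. These stand beside 0.275% called of all tested genes, and the medians were 0.45, 0.03 and 1.22. Immediate early and heat shock genes had 22 of 22 positive differences, with a median of 0.90 and no call, beside 7764 positive of all 14903 tested genes. Their summed level varied among replicates, from 12880 to 29924 CPM in basal controls and from 19132 to 40434 CPM in luminal controls. Of 24 genes of the G2 and M phases, 2 had a positive difference, with a median of -0.44, and none was called. The Notch, interferon, antigen presentation, NF-kB, S phase, stem cell, cornified envelope and saliva lists gave no call, nor did the Foxp family. Endothelial markers had a median of 1.42 and pericyte markers one of 1.16, and these lists and those of macrophages, T and B cells, fat cells, red blood cells and nerve gave no call.

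**Figure D5:**
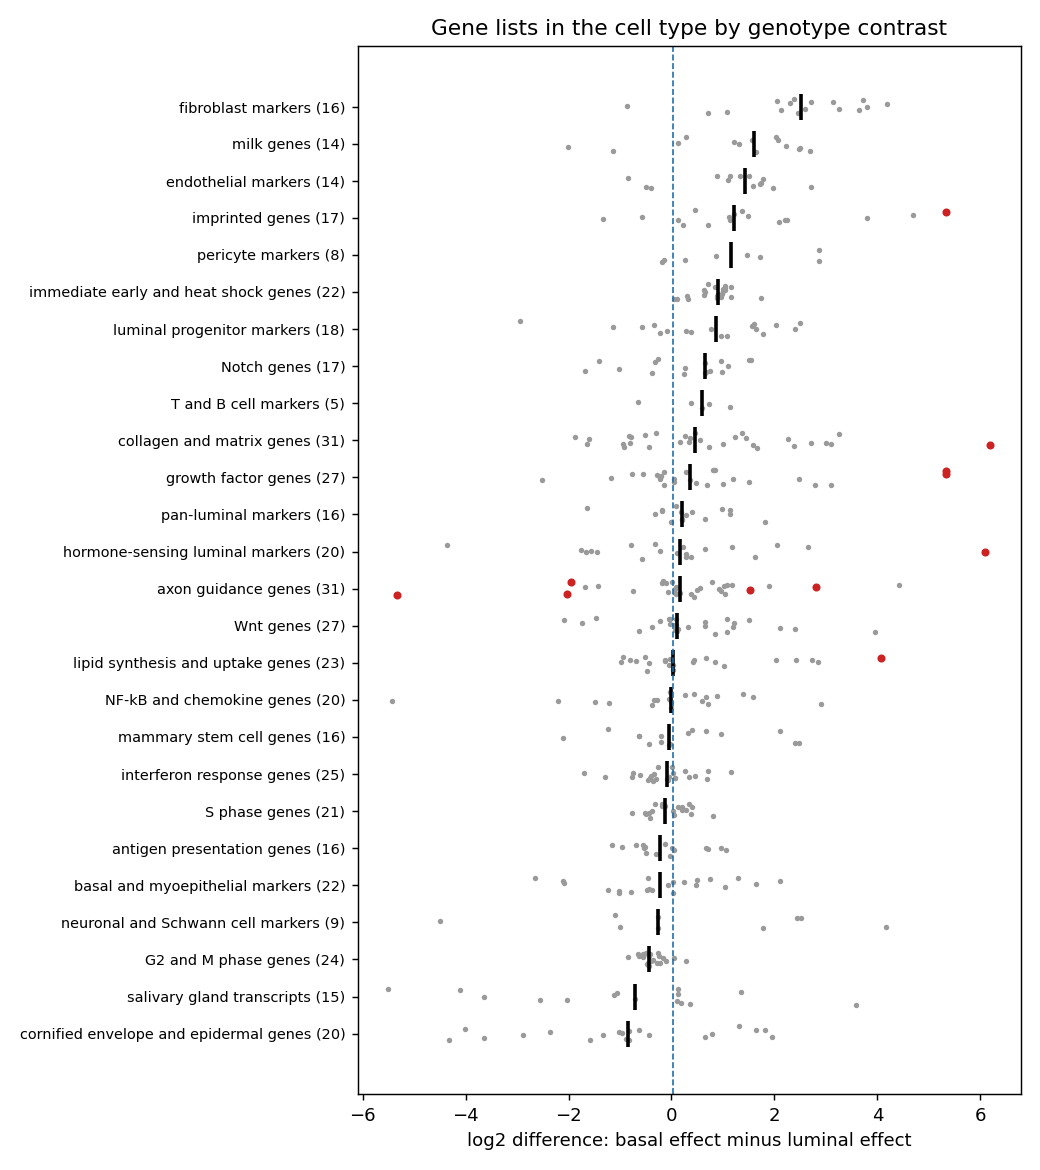
Difference of log2 effects, basal minus luminal, for the tested members of each list with 5 or more of them (number in brackets), with called genes in red, list medians as black bars and the median of all tested genes as a dashed line. The guidance list holds 5 called genes on both sides of 0, and the fibroblast median is 2.52.

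The median standard error of the difference was 0.43 on the log2 scale, against 0.30 for each single effect. The smallest difference called was 1.52 by size.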

How the data were processed

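RNA from 12 libraries was sequenced after TruSeq RNA v2 preparation, per the labels. Names of tools in the submitters' processing notes are CASAVA 1.8.2 and featureCounts, with mm10 as the build. The aligner is not given in the sources used here, nor is the annotation. Read counts per gene were deposited by the authors as whole numbers without normalization, for 27179 genes, and 859 of these lack a symbol. Comparing the table for the whole series with the single-library tables found 0 differing values. Libraries held between 9769361 and 15449513 counts.

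TMM factors scaled the counts, and edgeR's default rule for expression by group filtered them. The 4 group means were fitted over all libraries (8 residual degrees of freedom) with edgeR 4.0.16 in R 4.3.3. Its robust quasi-likelihood F test, with Benjamini-Hochberg adjustment over the 14903 tested genes, gave every adjusted p of a gene unless another tool is named. Called means an adjusted p under 0.05. A standard error is the absolute log2 value over the square root of F. Levels are library-scaled counts (CPM) after TMM scaling. For 3 or fewer counts in a group, summed counts are given, with exact 95% limits for their ratio that cover counting error only. A group with 0 counts was also set to 3.

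The named genes were Foxp1, the 24 genes of lowest p in the contrast and up to 10 called genes of largest difference per direction, both from genes averaging at least 1 log2 CPM and without predicted genes. To these came up to 3 called members of each list (2 of lowest p where none was called) and a fixed set of 20 genes. A called gene and a gene taken by the rule are not reported here and stay in the counts. The contrast, the 30 lists with 535 genes and this rule were chosen with earlier results of these data known. RefSeq positions were found by gene number for 25254 genes, and promoter windows are from RefSeq GRCm38.p6.

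With simulated counts for this contrast (14727 genes tested), 52 of 100 genes with a 4-fold difference of effects and 95 of 100 with a 16-fold difference were called, beside 7 false calls. Only genes above a count minimum in both cell types were changed, and only in luminal knockout-labelled libraries. Recovery of genes with few counts in a layer was not simulated. Whether replicate numbers pair libraries was checked from the correlation of their deviations within groups. It was 0.356, 0.301 and 0.535 between luminal control and knockout-labelled libraries, and -0.0867, 0.358 and 0.13 between the basal ones. Blocked counts are given beside the unblocked ones for the difference and for each cell type. Every adjusted p in the Results is from the fit without the block. Other settings were 4 other scalings, refits on other gene filters, DESeq2 1.42.0, limma-voom (limma 3.58.1), no robust step, the replicate block, fewer libraries and leaving out each library.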

Additional observations from a re-analysis of the deposited data

Results flagged for a closer look

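A difference between the cell types in the effect of the knockout label was called, by the test of the difference itself, for 41 genes. Of these 40 are named here. Those with a positive difference (basal log2 fold minus luminal log2 fold) were Col8a1 (6.19), Zfp979 (6.24), Tnfsf11 (6.08), Igf2 (5.34), Angpt1 (5.33), Pcolce2 (5.28), Tmem229a (5.03), Rbm24 (4.37), Dpp6 (4.21), Adcy5 (4.20), Lpl (4.07), Lpar1 (3.70), Pamr1 (3.63), Tmtc1 (3.48), Ch25h (3.44), Sidt1 (3.38), Nav3 (3.34), Scara5 (3.23), Ecm2 (2.98), Ntn1 (2.81), Serpine2 (2.37), Cdc42ep3 (2.07), Frat2 (1.75), Clu (1.56) and Plxnd1 (1.52). Those with a negative difference were Ryr3 (-8.37), Robo2 (-5.33), Cyfip2 (-5.22), Slc6a21 (-4.69), Igdcc4 (-4.14), Cdh2 (-3.61), Mak (-3.49), Apcdd1 (-2.88), Adcy3 (-2.84), Pmaip1 (-2.57), Syne1 (-2.12), Robo1 (-2.02) and Slit2 (-1.95). Gm17619 (adjusted p = 0.046) and Efcab1 (adjusted p = 0.0474) were also called, with too few counts in a group for a fold. Zfp979, Tnfsf11 and Dpp6 had few basal counts, so a basal fall like their luminal one could hardly have been seen.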

How the results depend on the processing

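The difference of effects called 41 genes (27 positive, 14 negative), and the count rested on the tool and on single libraries. DESeq2 called 356 (204 and 152), limma-voom 22 (15 and 7) and the fit with the replicate block 106 (65 and 41), and these lists shared 40, 21 and 39 genes with the 41. Same-number libraries had deviations correlated above 0.1 in 15 of 18 pairs (from -0.0867 to 0.535), and since 3 pairs did not reach 0.1 the contrast was kept without the block. With it Lpl (adjusted p = 0.0525) and Efcab1 (adjusted p = 0.0537) lost their call. Other scalings and filters gave 35 to 54. Leaving out 1 library gave 10 (without luminal knockout replicate 2) to 86 (without luminal control replicate 3), or 81 without basal control replicate 3, with 6 to 52 positive and 4 to 40 negative calls. Only the fit without luminal knockout replicate 1, with 48, stayed within 1.5 times of 41.

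The basal count of 100 became 59 with library size alone, 417 with DESeq2, 236 with the block, 151 in a fit of the 6 basal libraries, 16 in that fit with the block (added after seeing the data), and 17 to 142 without 1 library. The luminal count of 451 became 1089 with DESeq2, 1097 with the block, 199 in a fit of the 6 luminal libraries, 1355 in that fit with the block, and 127 to 716 without 1 library. The median of fat cell markers moved to 1.07 with library size alone. Of the differences of named genes none of the called ones changed sign, and the uncalled ones that did were Krt8 (-8.4e-05 with library size alone) and, without 1 library, Krt8 (-0.17 to 0.32), Krt5 (-3.23 to 0.24), Sprr1a (-5.29 to 0.12), Esr1 (-2.26 to 0.19), Elf5 (-0.85 to 0.31), Kit (-0.52 to 0.23) and a (-0.71 to 1.54). The cause of these changes was not tested. The smallest difference called by edgeR was 1.52 on the log2 scale, and the part of depth in this was not tested.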

Other observations

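Some genes known from cilia had negative differences, and they were picked after their values were seen, from no list. Beside the called Mak and Efcab1, luminal cells rose in Cfap69 from 1.95 ± 0.31 to 10.3 ± 4.86 CPM (SD, n = 3), with a difference of -3.16 (adjusted p = 0.0531), and in Iqcg from 0.574 ± 0.19 to 7.01 ± 2.74 CPM, with a difference of -3.96 (adjusted p = 0.0583). Cfap44 (-4.41, adjusted p = 0.0632), Ccdc96 (-3.58, adjusted p = 0.0632) and Ccdc40 (-4.44, adjusted p = 0.0599) also missed the threshold in the difference. No test of the group was made.

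Chromosome 16 holds 6 of the 41 called genes (14.6%), namely Col8a1, Robo2, Robo1, Adcy5, Sidt1 and Efcab1, beside 465 of 14583 tested genes with a position (3.19%) and 16 of 450 genes called in luminal cells (3.56%). Their differences point both ways. This was noticed after the values were seen, and no test was made.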
